A study of Rattus norvegicus with 288 samples.

Results

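Gene expression in the heart was compared between 8 vehicle rats killed 6 h after dosing and 8 vehicle rats killed at 1 h. These 16 arrays are among the 288 arrays of a study that profiled 3 tissues (heart, kidney and liver) of 96 rats, males of the Sprague-Dawley stock, 8 weeks old, each tissue on its own array. The 16 samples were picked by their labels alone. They were hearts of rats that received an infusion of dextrose in water (D5W) followed by an oral vehicle, at 1 or 6 h. None of these 16 rats received a drug. In each time group 4 rats were given sterile water by mouth and 4 were given the mixture F68/PG/PEG400 (Pluronic F68, propylene glycol and polyethylene glycol, called F68 below). All rats carried a femoral vein cannula, the infusion ran for 30 min, and the oral dose followed 30 min later. Rats were killed with CO2, and the sample was the apex of the heart with both ventricles. Water rats were dosed on 1 day and F68 rats on another, so the vehicle and the dosing day cannot be told apart. Hours after dosing and hour of the day cannot be told apart either, and handling, infusion and feeding move with both. Further arrays serve as comparisons: the hearts of 8 vehicle rats at 24 h, the hearts of 16 rats at 1 and 6 h that received oxaliplatin (15 mg per kg, a platinum drug) in place of the D5W infusion before the same vehicles, and 16 kidney and 16 liver samples of vehicle rats at 1 and 6 h. The 24 h heart arrays carry another code in their titles than the 1 h and 6 h arrays. In the titles of the 1 h and 6 h vehicle hearts, the number near the end of the code also differs between the times. The same holds for the oxaliplatin hearts and for the kidney and liver arrays, so those comparisons are not free of it. The labels do not say what this number stands for, so it cannot be told apart from the time.

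The circadian clock of a cell is a feedback loop. The activators Bmal1 and Clock, with the Clock relative Npas2, bind E-box sequences and drive their own repressors, the Per and Cry genes, along with the nuclear receptors Nr1d1 and Nr1d2 (Rev-erb alpha and beta) and the transcription factors Dbp, Tef and Hlf. The nuclear receptors in turn repress Bmal1 and Npas2 through their own DNA element, and Nfil3 competes with Dbp, Tef and Hlf for D-box sequences. Heart muscle has such a clock, which sets daily rhythms in metabolism and electrical excitability. Heart tissue also responds within minutes to handling, surgery and pressure load, through immediate early genes, chemokines, heat shock proteins and stress genes of the muscle cell such as Nppb.

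The promoters of a few of the genes below are shown because they hold the elements named above. Sequences are the 250 bases before the annotated start in RefSeq, build GRCr8, 5′ to 3′ on the gene's strand, and capitals mark a match to one of the searched motifs on either strand. The motifs were the E-box CACGTG, the D-box TTANGTAA, the Rev-erb/ROR element TNGGTCA, the cAMP response element TGACGTCA (in none of those shown) and the heat shock element (GAA, any 2 bases, TTC, any 2 bases, GAA), which did not overlap another match in the windows shown.
Bmal1 (chr1:176766078-176766327, plus strand, Rev-erb/ROR element): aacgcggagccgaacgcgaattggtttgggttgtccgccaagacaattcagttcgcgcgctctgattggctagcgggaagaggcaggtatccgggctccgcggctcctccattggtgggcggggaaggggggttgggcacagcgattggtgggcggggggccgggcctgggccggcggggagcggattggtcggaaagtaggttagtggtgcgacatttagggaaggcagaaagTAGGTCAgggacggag
Per2 (chr9:99496994-99497243, minus strand, D-box): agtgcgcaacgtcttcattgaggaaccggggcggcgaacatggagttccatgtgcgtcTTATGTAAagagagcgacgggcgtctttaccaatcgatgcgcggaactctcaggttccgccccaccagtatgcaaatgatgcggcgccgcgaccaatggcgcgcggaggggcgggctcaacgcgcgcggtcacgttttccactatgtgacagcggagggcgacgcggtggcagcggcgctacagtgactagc
Bhlhe41 (chr4:180569356-180569605, minus strand, E-box): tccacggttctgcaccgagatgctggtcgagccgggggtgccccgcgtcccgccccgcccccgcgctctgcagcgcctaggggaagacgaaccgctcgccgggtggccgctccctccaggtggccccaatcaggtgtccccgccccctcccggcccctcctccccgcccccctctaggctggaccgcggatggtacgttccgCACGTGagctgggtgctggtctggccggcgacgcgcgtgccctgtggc
Tef (chr7:115206577-115206826, plus strand, E-box): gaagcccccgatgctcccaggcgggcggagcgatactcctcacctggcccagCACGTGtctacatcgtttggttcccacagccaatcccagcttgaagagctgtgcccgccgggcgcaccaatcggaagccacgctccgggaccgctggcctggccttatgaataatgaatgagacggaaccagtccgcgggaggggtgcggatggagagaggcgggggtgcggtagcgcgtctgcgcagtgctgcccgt
Hsph1 (chr12:10427118-10427367, plus strand, E-box and heat shock element): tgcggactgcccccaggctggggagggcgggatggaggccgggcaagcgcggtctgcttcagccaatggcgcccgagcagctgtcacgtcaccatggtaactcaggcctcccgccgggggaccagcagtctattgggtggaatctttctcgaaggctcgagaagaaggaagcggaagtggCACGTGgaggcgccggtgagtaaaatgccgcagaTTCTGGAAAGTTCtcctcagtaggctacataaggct
Serpinh1 (chr1:163062977-163063226, minus strand, heat shock element): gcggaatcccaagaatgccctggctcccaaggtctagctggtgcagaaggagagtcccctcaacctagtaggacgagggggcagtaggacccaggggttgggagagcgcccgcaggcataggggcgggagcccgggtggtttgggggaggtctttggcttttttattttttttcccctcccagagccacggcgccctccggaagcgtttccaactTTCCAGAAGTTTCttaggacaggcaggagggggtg
Over windows of 300 bases (250 before and 50 after the start) of 33469 promoters, the E-box letters were found in 6.42%, the D-box in 2.24%, the Rev-erb/ROR element in 11.1%, the cAMP response element in 1.83% and the heat shock element in 0.798%. Of 3 activators with a promoter in the table, Bmal1 alone had the Rev-erb/ROR letters. Of 7 repressors with a promoter, 3 had the E-box (Bhlhe40, Bhlhe41 and Ciart) and 1 the D-box (Per2), and of 3 promoters among Dbp, Tef, Hlf and Nfil3, 1 had the E-box (Tef). The heat shock element was found in 7 of 24 heat shock promoters (Hspa8, Hsph1, Dnaja1, Hspd1, Hspe1, Serpinh1 and Chordc1). A match describes letters in this window and is not a measured binding site.

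Values are log2 expression levels. A gene is called when its difference has a Benjamini-Hochberg adjusted p under 0.05 in limma, over all 11317 genes tested. Each of the 16 rats is one sample of its group in the labels. Of the genes tested, 4165 (36.8%) were called between 1 h and 6 h, 1096 (9.68%) higher and 3069 (27.1%) lower at 6 h. Changes were small: the median size among called genes was 0.20 on the log2 scale, no called gene was 2-fold higher and 5 were at least 2-fold lower (Tnfrsf12a, G0s2, Bmal1, Nppb and Ccl2). The values of all 8 rats at 6 h lay on one side of all 8 at 1 h for 347 genes (3.07%), above for 104 (0.919%) and below for 243 (2.15%). The surplus of falls depended on the scaling. The median over all tested genes was -0.05, and when each array was centred on its median tested gene 2130 genes were higher and 1579 lower, so that the share of rises among called genes went from 26.3% to 57.4%. After a second quantile normalization it was 45.7%. Of all genes tested, 18.8% were higher and 14.0% lower after centring, and 12.2% and 14.5% after the second quantile normalization. Counts of gene lists are therefore followed by those after centring and after the second quantile normalization, in this order, where either differed, with rises and falls in the same order as in the count they follow.

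Markers of the tissue and of other cells were checked first. The mean of 11 ventricular muscle markers lay between 13.95 and 14.09 at 1 h and between 13.89 and 14.02 at 6 h, and 1 of them, Nppb, was called. Myl7, an atrial gene, ranged from 4.88 to 10.7 at 1 h and from 5.69 to 10.8 at 6 h. Of 17 endothelial markers 2 were called, both lower (Kdr and Ptprb), and of 13 macrophage and 8 liver markers limma called none (1 in each list had an unadjusted p under 0.05). Of 10 smooth muscle and pericyte markers 2 fell (Tagln by 0.31 and Smtn) and Notch3 rose by 0.36, of 18 fibroblast markers Loxl1 fell by 0.35, and of 11 lymphocyte markers Cd2 fell and 2 rose (Cd4 and Il7r, the latter by 0.33). Of 5 mesothelial markers Wt1 fell by 0.46 (limma adjusted p = 6.77e-07), though its second probe set differed by -0.05 and was not called. Lrrn4 of the same list rose by 0.30, and 3 were not called. Of 5 erythroid markers Ahsp fell by 0.65 and Epb42 by 0.22, and 3 were not called. Of 3 adipocyte markers Cfd fell by 0.46 and Lipe rose by 0.25. Alb, a liver gene, ranged from 5.39 to 11.8 at 1 h and from 6.04 to 9.42 at 6 h, with 5 of 8 arrays above 9 at 1 h and 1 of 8 at 6 h. The 3′ minus 5′ difference of the beta-actin control probe sets (log2), an index of RNA quality, was 0.29 to 0.53 at 1 h and 0.20 to 0.33 at 6 h. The median over all probe sets of an array was 6.627 to 6.656 at 1 h and 6.661 to 6.685 at 6 h, without overlap. A control probe set for BioB was at 8.31 to 8.82 (median 8.76) at 1 h and 8.24 to 8.60 (median 8.42) at 6 h. The lowest value at 1 h was that of F68 replicate 4, and the next lowest, 8.63, lay above all arrays at 6 h. This control thus differed with time as well. One array, 1 h F68 replicate 4, was no closer to the other 1 h arrays than to the 6 h arrays (mean correlation of deviations -0.11 and -0.03). In whole tissue, fewer cells of a type and less RNA per cell cannot be told apart.

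All 3 activators of the clock fell, in each vehicle. Bmal1 lay at 7.48, 8.20 and 8.78 at 1 h (lowest, median and highest of 8 rats) and at 6.56, 6.92 and 7.36 at 6 h. The groups did not overlap, and the fall was 1.15 on the log2 scale (SE 0.16, limma adjusted p = 6.04e-08), 2.22-fold. At 1 h the spread was wide: water rats were at 7.71, 7.48, 7.53 and 8.66 and F68 rats at 8.57, 8.45, 8.78 and 7.95. Npas2 went from 5.87, 6.52 and 7.16 to 5.37, 5.67 and 5.99, with overlap between the groups, a fall of 0.90 (SE 0.13, limma adjusted p = 2.08e-07). All rats at 6 h lay under log2 6, the level that a gene had to pass on at least 4 heart arrays. The size of a fall to such low values is uncertain. The fall of Npas2 was 0.52 in water rats and 1.28 in F68 rats, a difference that was not called. Clock went from 8.00, 8.42 and 8.67 to 7.68, 7.89 and 8.17, a fall of 0.51 (SE 0.07, limma adjusted p = 2.01e-07) that was of like size with water (-0.49) and F68 (-0.52). Another probe set of Clock differed by -0.55 and was called, and a dimmer one differed by -0.10 and was not. All 3 activators stayed called in every left-out set of doubted arrays and after both scalings.

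The D-box binding activators, which lie downstream of the loop, moved the other way. Tef rose from 8.82, 9.19 and 9.47 to 9.75, 9.90 and 10.13 without overlap, by 0.74 (SE 0.09, limma adjusted p = 1.11e-08). Dbp rose from 8.77, 9.31 and 9.93 to 9.78, 10.22 and 10.34, by 0.79 (SE 0.14, limma adjusted p = 6.13e-06), and the lowest rat at 6 h lay below 2 rats at 1 h. Hlf rose from 6.24, 6.38 and 7.03 to 6.74, 7.06 and 7.47, by 0.62 (SE 0.11, limma adjusted p = 8e-06). Nfil3, which acts against these 3, fell by 0.26 (SE 0.08, limma adjusted p = 0.00572). Within the 1 h group the rat with the highest Dbp, F68 replicate 4 (9.93), had the lowest Bmal1 of the F68 rats (7.95), and the rat with the lowest Dbp, water replicate 4 (8.77), had the highest Bmal1 of the water rats (8.66). Over both vehicles neither was the extreme of Bmal1, since some water rats lay below the first and another F68 rat above the second. F68 replicate 4 was also the array no closer to the other 1 h arrays than to the 6 h arrays.

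Of 7 tested repressors 5 rose and 1 fell, where 9.68% of all genes were called higher and 27.1% lower. Cry2 rose by 0.29 (SE 0.05, limma adjusted p = 1.9e-05), Bhlhe41 by 0.50 (adjusted p = 0.000491) and Per3 by 0.27 (adjusted p = 0.00337). Per2 was at 8.26, 8.56 and 9.07 at 1 h and 8.31, 9.01 and 9.48 at 6 h, and its rise of 0.40 (SE 0.16, limma adjusted p = 0.0389) was not called in 14 of 27 other settings. Another probe set of Per2 differed by -0.03 and was not called. The rise of Per1 by 0.29 (limma adjusted p = 0.028) was not called in 8 of 27. Cry1 differed by -0.08 and was not called (limma adjusted p = 0.487), and Bhlhe40, an E-box repressor that also responds to stress, fell by 0.37 (limma adjusted p = 0.00587). The paired nuclear receptors went in opposite directions: Nr1d1 fell by 0.43 (SE 0.08, limma adjusted p = 1.36e-05), from 8.83, 9.01 and 9.32 to 7.88, 8.70 and 8.95, and Nr1d2 rose by 0.36 (SE 0.07, limma adjusted p = 9.06e-05), from 9.61, 9.88 and 10.30 to 10.13, 10.22 and 10.43. Both directions held after both scalings. Without the 6 arrays with Alb above 9, which left 3 rats at 1 h and 7 at 6 h, 1 of the 7 repressors was still called, as higher. In that setting 1.89% of all genes were called higher and 5.74% lower.

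**Figure D1:**
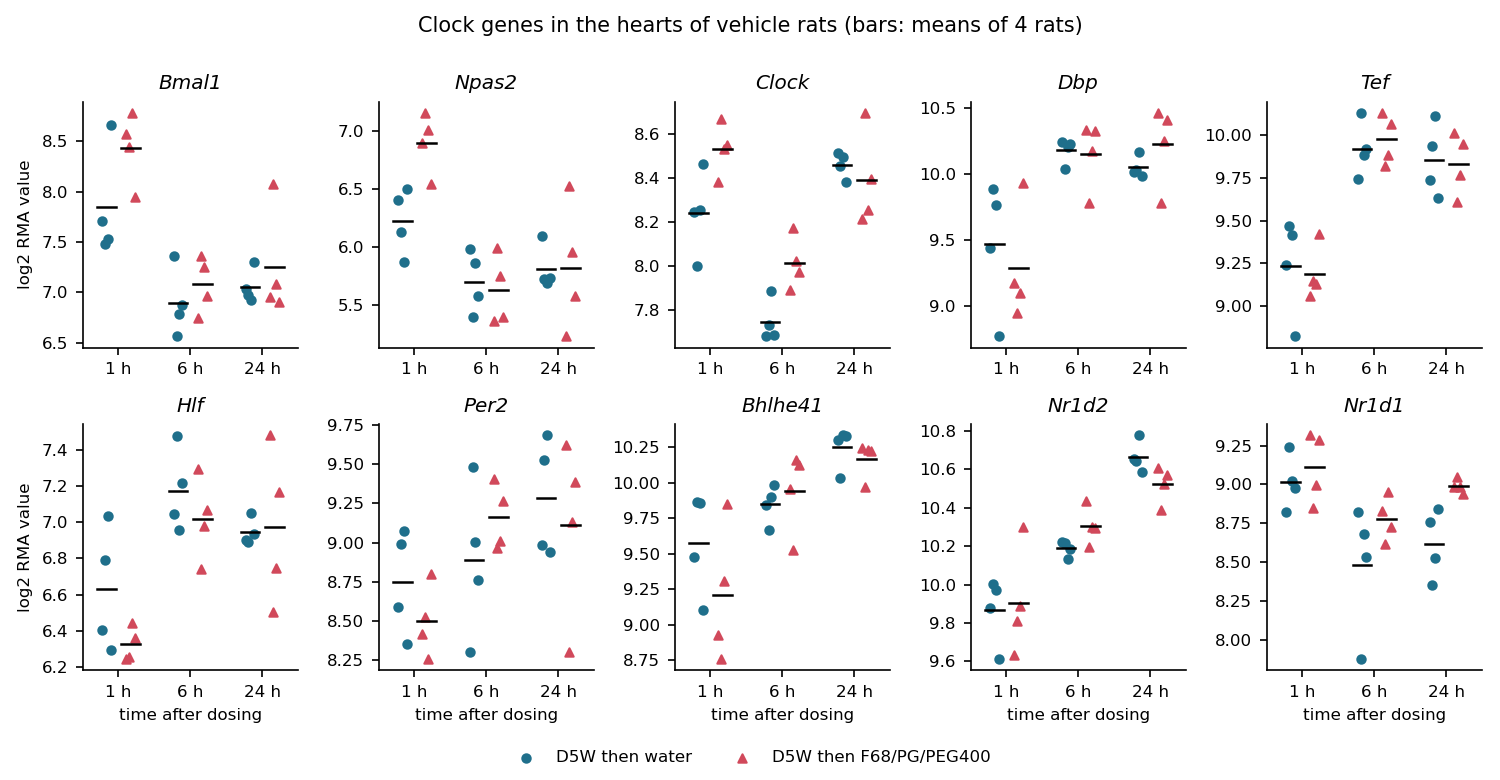
Log2 RMA value of 10 clock genes in each vehicle rat at 1, 6 and 24 h after dosing, circles for water and triangles for F68, bars at the mean of 4 rats. Bmal1 and Npas2 are lower and Tef and Dbp higher at 6 h than at 1 h, and the 24 h values of these 4 genes lie near those at 6 h, while Clock is back near its 1 h level. Each panel has its own axis.

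Outside the loop the clock lists moved less. Of 12 genes of cardiac clock output 4 rose (Tcap, Dgat2, Wee1 and Tspan4) and 1 fell (Klf10), and 6 rose and 1 fell after either scaling. Wee1, a kinase that restrains entry into mitosis, rose by 0.51 (SE 0.10, limma adjusted p = 8.65e-05) and Tspan4, a tetraspanin, by 0.48 (adjusted p = 0.00106). Of 7 genes that modify clock proteins or follow them closely, Csnk1d (-0.19) and Noct (-0.41) fell and none rose (2 fell and 1 rose, then 1 and 2). The fall of Csnk1d rested on its brightest probe set alone, as its others differed by -0.01 to 0.08 and were not called. Dimmer probe sets of Usp2 and Btrc rose by 0.22 and 0.17, both called when every probe set was tested. Of 21 cardiac ion channel genes 3 rose, Kcnh2 (0.19), Kcnj2 (0.20) and Cacnb2 (0.25), and 1 fell, Kcnd2 (-0.29, limma adjusted p = 0.00781), and 6 rose and 1 fell after either scaling. Over all genes the shares were 9.68% higher and 27.1% lower.

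Among the largest rises outside the clock were those of Ddit4, Car5b and Gpm6a. Ddit4, an inhibitor of mTOR complex 1 that glucocorticoids and low energy induce, rose by 0.91 (SE 0.20, limma adjusted p = 0.000229), from 8.27, 9.05 and 9.57 to 9.25, 9.96 and 10.20. With water it rose by 1.14, with F68 the difference was 0.68 and was not called, and the difference between the vehicles was not called. Car5b, a mitochondrial carbonic anhydrase, rose by 0.82 (limma adjusted p = 0.00506), and Gpm6a, a membrane glycoprotein, by 0.76 (limma adjusted p = 0.0194). A dimmer probe set of Car5b differed by 0.36 and was not called. P2ry1, a receptor for ADP, rose without overlap by 0.65 (SE 0.10, limma adjusted p = 1.46e-06). Pik3ip1, which restrains PI3 kinase, rose without overlap by 0.54 (SE 0.08, limma adjusted p = 8.85e-07). Of 15 Nrf2 targets 2 rose and 3 fell (4 and 1, then 3 and 1): Ephx1, an epoxide hydrolase, rose by 0.64 with overlap between the groups, and Osgin1 rose by 0.36 without overlap. Of 22 glucocorticoid targets 4 rose (Tsc22d3, Per1, Ddit4 and Nfkbia) and 2 fell (Cdkn1a and Gadd45b), against 6 and 1, then 7 and 3. Of 23 genes of atrophy and autophagy 4 rose (Fbxo32, Cited2, Ddit4 and Tfeb) and 3 fell, against 8 and 1, then 6 and 1. Over all genes 9.68% were higher and 27.1% lower as deposited.

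Genes of growth and protein turnover fell in large part. Of 31 ribosome biogenesis genes 26 fell and 1 rose (Utp15), with a median difference of -0.22 beside -0.05 over all genes, and 19 fell after centring and 21 after the second quantile normalization. Nop58, a core protein of box C/D small nucleolar RNPs, fell without overlap by 0.59 (SE 0.05, limma adjusted p = 9.38e-14), the smallest p of the named genes. Water rats were at 10.09, 10.08, 10.67 and 10.41 at 1 h and 9.53, 9.56, 9.74 and 9.67 at 6 h, and F68 rats at 9.94, 9.93, 9.97 and 9.84 and then 9.36, 9.36, 9.47 and 9.49. Gar1 fell by 0.41, Fbl, the methyltransferase of the same particles, by 0.40 and Nip7 by 0.37. Of 18 cytosolic ribosomal protein genes 5 fell, a share near that over all genes, the largest by 0.10 (Rpl35). None of them was called by limma after either scaling (7 had an unadjusted p under 0.05 as deposited). The shares of all genes called lower were 27.1% as deposited, 14.0% after centring and 14.5% after the second quantile normalization.

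Of 31 proteasome subunits 24 fell and none rose, with a median of -0.13. This shift was small, and 11 fell and 1 rose after centring, 7 and 1 after the second quantile normalization. Beside these stand 27.1% of all genes called lower as deposited, 14.0% after centring and 14.5% after the second quantile normalization. Psmd12 fell by 0.32 (SE 0.05, limma adjusted p = 6.1e-06) and Psmd13 by 0.26, both lid subunits. Psmd11 fell without overlap, from 10.82, 10.90 and 11.00 to 10.56, 10.72 and 10.78, by 0.19 (SE 0.03, limma adjusted p = 3.77e-07). Another probe set of Psmd11, nearly as bright, differed by -0.06 and was not called.

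Of 25 heat shock response genes 15 fell and none rose (10 fell after either scaling, and 1 rose after centring). As deposited 27.1% of all genes were lower, after centring 14.0% and after the second quantile normalization 14.5%. Dnajb1 and Dnaja1, partners of the Hsp70 proteins, fell without overlap, by 0.59 (SE 0.09, limma adjusted p = 3.65e-07) and 0.53 (SE 0.09, limma adjusted p = 5.04e-06). Hspa1a, the stress-induced Hsp70, fell by 0.82 (SE 0.19, limma adjusted p = 0.000537). Its highest value at 1 h was 11.09, in water replicate 3, and its highest at 6 h was 10.07, in an F68 rat. The fall was 1.41 with water, and with F68 the difference was -0.23 and was not called. Hsph1, whose promoter is printed above, fell by 0.40 (limma adjusted p = 0.000922). Of 19 chaperones and sensors of the endoplasmic reticulum 11 fell and 2 rose (10 and 3, then 9 and 3). Creld2 fell by 0.66 (SE 0.09, limma adjusted p = 1.21e-07), Dnajc3 by 0.41, Manf by 0.33 and Hspa5 (BiP) by 0.30, whereas Herpud1, of the degradation branch, rose by 0.38 (limma adjusted p = 0.000118). Leaving out the 6 arrays with Alb above 9 lowered the falls to 3 of 31, 2 of 31, 3 of 25 and 1 of 19 in these 4 lists, with medians of -0.14, -0.08, -0.13 and -0.14, where 5.74% of all genes were called lower.

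**Figure D2:**
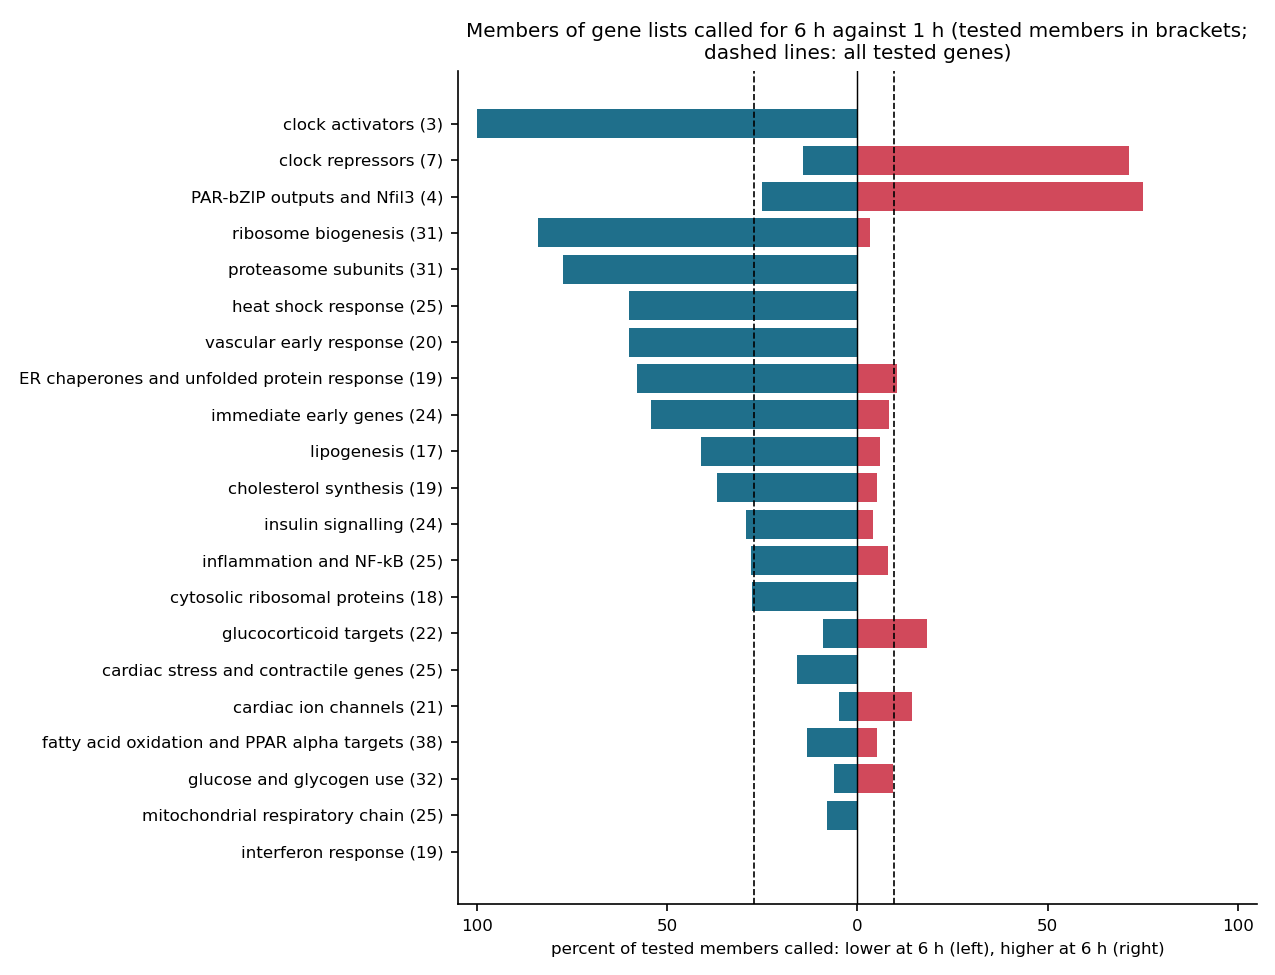
Share of the tested members of 21 gene lists called lower (left) or higher (right) at 6 h than at 1 h, in percent, with the number tested in brackets. Dashed lines mark the shares over all 11317 genes as deposited, 27.1% lower and 9.68% higher (14.0% and 18.8% after centring). Beyond the left line lie the clock activators and the ribosome biogenesis, proteasome, heat shock, vascular, endoplasmic reticulum and immediate early lists. Lipogenesis and cholesterol lists also lie beyond it, by less, and insulin, inflammation and cytosolic ribosomal protein lists lie near it. The lists were chosen with earlier results of these data known.

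Of 25 stress and contractile genes of heart muscle 4 fell and none rose (4 and 7, then 4 and 1), fewer falls than the 27.1% over all genes, with a median of -0.02. Nppb, which encodes B-type natriuretic peptide, went from 11.99, 12.91 and 13.50 to 11.25, 11.68 and 12.58, a fall of 1.11 (SE 0.18, limma adjusted p = 2e-06) that was 1.17 with water and 1.05 with F68. Xirp1, an actin-binding protein of the intercalated disc, fell without overlap by 0.76 (SE 0.11, limma adjusted p = 4.1e-07), Rcan1, a calcineurin target and regulator, by 0.82, and Ccn2, a matrix growth factor, by 0.96. These were the 4 falls, and the others, Nppa, Myh6, Myh7 and Acta1 among them, were not called. Tnfrsf12a, the receptor of the cytokine TWEAK, had the largest fall among called genes, 1.36 (SE 0.18, limma adjusted p = 4.96e-08), 2.56-fold. Water rats were at 9.27, 9.76, 11.12 and 10.85 at 1 h, F68 rats at 9.47, 9.46, 8.90 and 9.06, and at 6 h 7 of 8 rats were between 7.80 and 8.59 and 1 was at 9.21. G0s2, an inhibitor of the lipase Pnpla2, fell without overlap from 10.20, 10.69 and 11.02 to 8.64, 9.41 and 9.83, by 1.24 (SE 0.19, limma adjusted p = 8.04e-07), 2.37-fold. Leo1, a subunit of the Paf1 complex, fell without overlap by 0.84 (SE 0.10, limma adjusted p = 1.11e-09), and Slc41a3, of a family of magnesium transporters, by 0.80 (SE 0.12).

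Of 24 immediate early genes 13 fell and 2 rose (Egr3 by 0.17 and Arc by 0.25), against 12 and 2, then 12 and 1. Over both vehicles 27.1% of all genes were lower and 9.68% higher as deposited. The vehicles were then taken apart, where limma called 13.8% of all genes lower with water and 18.7% with F68. With water alone limma called 13 lower (15 at an unadjusted p under 0.05), with F68 alone it called none lower and Arc higher (1 lower and 3 higher at an unadjusted p under 0.05). The change itself differed between the vehicles for 3 of the 24 (Egr1, Egr2 and Ier2). Egr2 was dim, with a mean of 5.35 over the heart arrays. Egr1 was at 8.35, 8.20, 9.74 and 8.70 in water rats at 1 h and 6.95, 6.90, 7.53 and 6.44 at 6 h. In F68 rats it was at 7.93, 7.24, 7.65 and 7.78 and then 7.43, 7.67, 7.66 and 7.41. Its difference was -1.79 with water and -0.11 with F68, and the gap between the vehicles of 1.69 was itself called (limma adjusted p = 0.0462). Atf3 fell by 0.86 and Ier5 by 0.54 over both vehicles, while Fos, Jun and Nr4a1 were not called. Of 20 early vascular genes 12 fell (10, then 8), 11 with water and 2 with F68, among them Rnd1 (-0.81), Hbegf (-0.62) and Angpt2 (-0.58). This and the other lists were chosen with earlier results of these data known, so their counts are a description. Of 25 genes of inflammation 7 fell and 2 rose (Tnf and Nfkbia), against 5 and 3, then 5 and 1, and 10 fell with water and 1 with F68. The difference in change between the vehicles was itself called by limma for 0 of the 20 vascular, 0 of the 25 inflammation and 0 of the 25 heat shock genes (9, 7 and 2 had an unadjusted p under 0.05), so a difference between the vehicles was not shown for them.

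For Ccl2, Tnfrsf12a, Egr1, Atf3, Rnd1, Hbegf and Hspa1a the 2 highest values at 1 h came from water replicates 3 and 4, and for Icam1, Il1b, Angpt2, Maff and Ier5 the highest came from replicate 3. Ccl2, a chemokine for monocytes, was at 8.48, 9.66, 12.38 and 11.30 in water rats at 1 h, between 7.38 and 9.02 in F68 rats at 1 h and between 7.15 and 9.28 in all rats at 6 h. Its fall of 1.05 (SE 0.40, limma adjusted p = 0.0307) was not called in 12 of 27 other settings. Without these 2 arrays, 9 of 24 immediate early genes, 9 of 20 vascular genes and 2 of 25 inflammation genes fell, and 18 of 31 ribosome biogenesis genes, where 22.8% of all genes were called lower. The 13 macrophage markers averaged 8.39 to 9.31 at 1 h and 8.53 to 9.14 at 6 h, and what part cells other than muscle had in these falls was not tested.

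**Figure D3:**
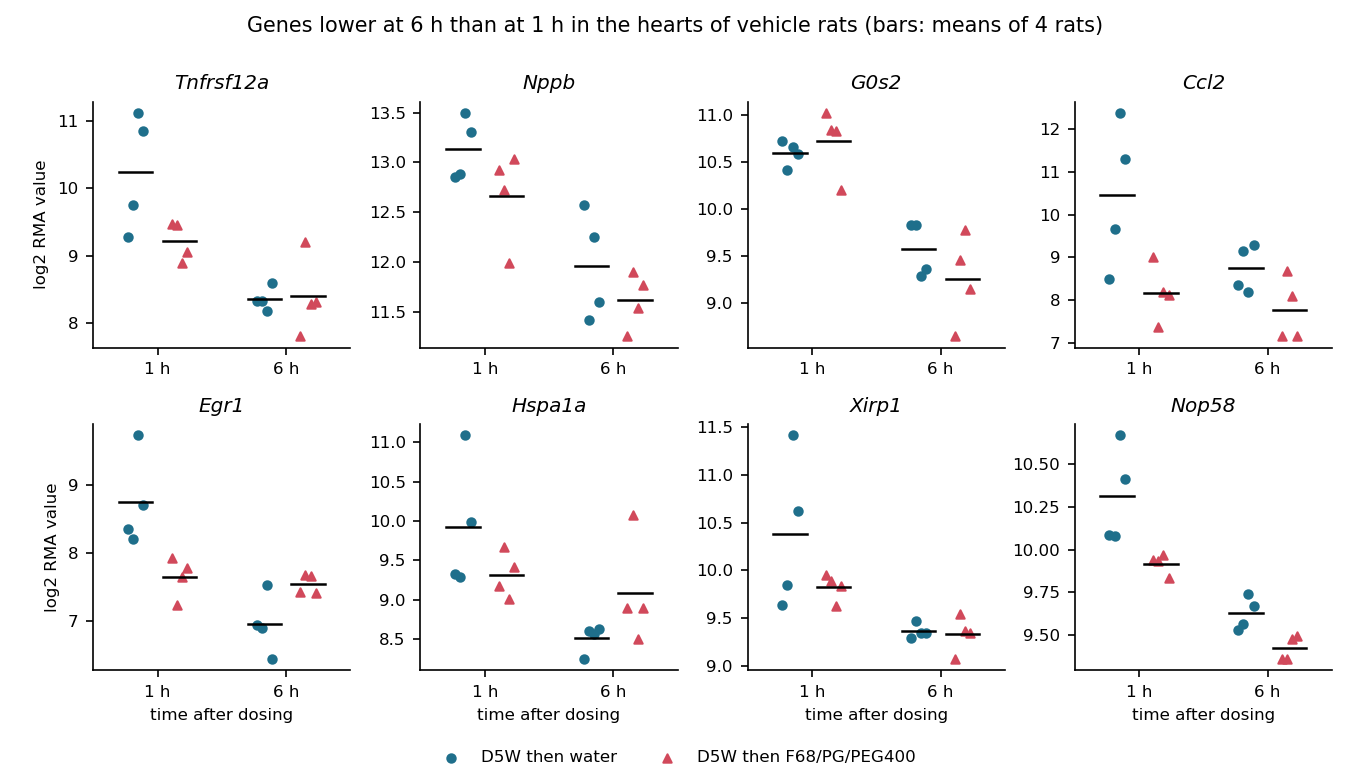
Log2 RMA value of 8 genes that were lower at 6 h than at 1 h, in each of 16 vehicle rats, circles for water and triangles for F68, bars at the mean of 4 rats. G0s2, Xirp1 and Nop58 do not overlap between the times, whereas the 1 h values of Ccl2, Egr1 and Hspa1a are spread by the water rats. Each panel has its own axis.

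Genes of fuel use changed little. Of 38 genes of fatty acid oxidation 2 rose (Ehhadh and Cd36) and 5 fell (Vldlr, Plin2, Plin5, G0s2 and Ucp3), against 9 and 4, then 5 and 3. Of 32 genes of glucose and glycogen use 3 rose and 2 fell (11 and 1, then 8 and 2), while of 25 respiratory chain genes none rose and 2 fell (13 and 1, then 2 and 1). These lists have no settled direction. Of 19 cholesterol synthesis genes 7 fell and 1 rose (5 and 1 after the second quantile normalization), with Idi1 at -0.47, Sqle at -0.38 and Insig1, a sterol sensor, at -0.30. Of 17 lipogenesis genes 7 fell, Fasn by 0.24 and Pnpla3 by 0.57, and 1, Dgat2, rose by 0.46 (3 and 1, then 4 and 1). Irs2, the insulin receptor substrate, fell by 0.35 (limma adjusted p = 0.00879) and was 1 of 7 falls in 24 insulin signalling genes, where 1 rose (3 and 3, then 5 and 2). Over all genes 27.1% were lower. Of 19 interferon response genes limma called none, and none had an unadjusted p under 0.05.

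With 4 rats against 4, 2064 genes (18.2%) were called in water rats, 4.44% of all genes higher and 13.8% lower. In F68 rats 2697 (23.8%) were called, 5.18% higher and 18.7% lower, from arrays that the 2 comparisons do not share. In the same direction both called 934 genes, 45.3% of the water calls and 34.6% of the F68 calls, and 4 were called in opposite directions. Of the water calls 90.6% had the same sign with F68, as did 71.5% of all genes. Across the 11317 genes the differences correlated at 0.47, as a description across genes that share arrays. The change differed between the vehicles for 29 genes (0.256%), 0.0972% with a more positive and 0.159% with a more negative change after F68. Those with a smaller fall or a rise with F68 included Egr1, Egr2, Tnfaip6, S1pr3 and Gfpt2. Tnfaip6, a hyaluronan-binding protein induced by inflammation, differed by -1.59 with water and 0.06 with F68. On the other side Smim5 rose by 0.41 with water and fell by 0.46 with F68, and Cox5a, a cytochrome c oxidase subunit, rose by 0.45 with water and differed by -0.16 with F68. This list of 29 rested on single arrays, since leaving out 1 array gave between 0 (without 1 h F68 replicate 2) and 124 genes (without 1 h water replicate 1).

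**Figure D4:**
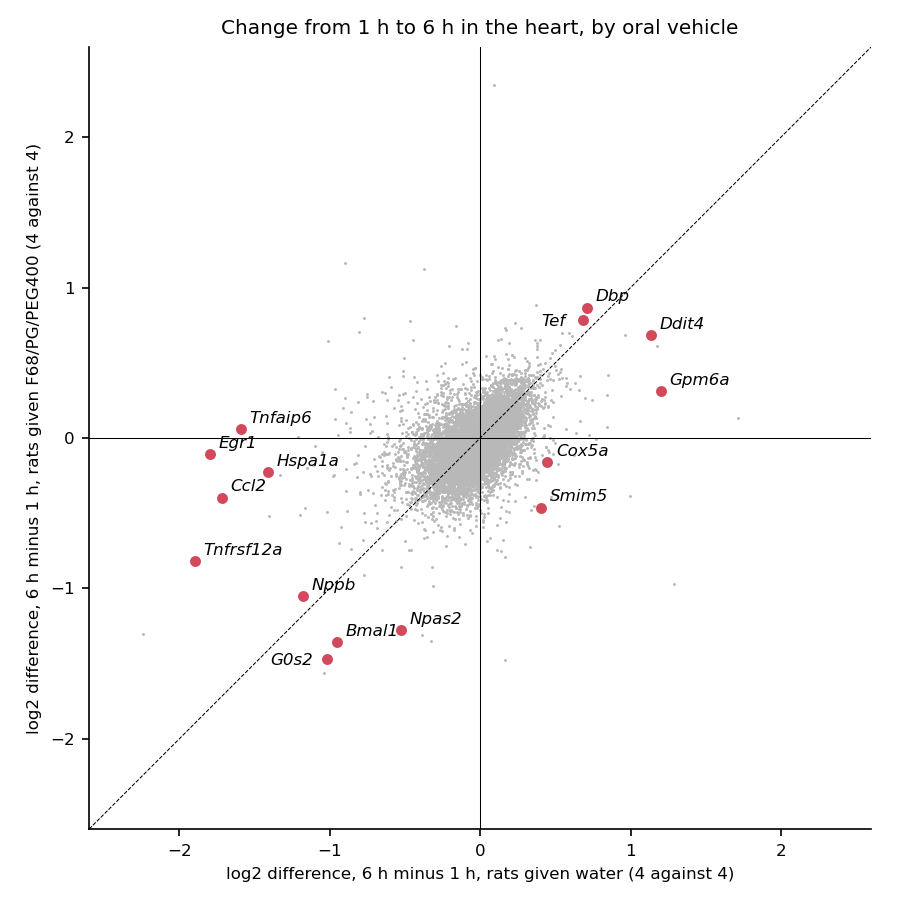
Log2 difference between 6 h and 1 h for each of 11317 genes, in water rats (x axis, 4 against 4) and in F68 rats (y axis, 4 against 4), with named genes in red and equality dashed. Nppb lies near the diagonal (-1.17 and -1.05), Bmal1 (-0.95 and -1.36) and G0s2 (-1.02 and -1.47) are low on both axes, and Egr1 (-1.79 and -0.11), Tnfaip6 and Hspa1a lie left of the diagonal.

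The third time was 24 h. The water arrays at 24 h stood apart (Wasf2 up to 7.94 at 24 h against at most 4.69 at 1 h), so F68 rats alone are described, 4 at each time, and the comparisons share their arrays with those above. From 6 to 24 h 26.3% of genes were called, 16.1% higher and 10.2% lower, and from 1 to 24 h 20.3%, 6.78% higher and 13.5% lower. Bmal1 remained low, with a difference of 0.18 from 6 to 24 h (limma adjusted p = 0.59) and of -1.18 from 1 to 24 h (limma adjusted p = 4.92e-05). Npas2 (-1.08), Dbp (0.94), Tef (0.65) and Hlf (0.65) were likewise called from 1 to 24 h and not from 6 to 24 h. Clock rose by 0.37 from 6 to 24 h (limma adjusted p = 0.00547) and differed by -0.14 from its 1 h level, which was not called. G0s2 rose again by 1.28 (limma adjusted p = 0.00038), Nppb by 0.90 (limma adjusted p = 0.00733), Leo1 by 0.64, Dnajb1 by 0.58 and Nop58 by 0.36, each lower at 6 h than at 1 h. From 1 to 24 h G0s2, Nppb, Dnajb1 and Nop58 were not called. Tnfrsf12a stayed down, at -1.13 from 1 to 24 h (limma adjusted p = 0.000834).

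In the 16 oxaliplatin rats, which share no array with the vehicle rats, 2676 genes (23.6%) were called from 1 to 6 h, 1024 higher (9.05%) and 1652 lower (14.6%). The 2 comparisons called 1635 genes in the same direction, 39.3% of the vehicle calls and 61.1% of the oxaliplatin calls, and 15 in opposite directions. Bmal1 (-0.90), Npas2 (-0.90), Clock (-0.51), Tef (0.65), Nppb (-1.21) and Nop58 (-0.35) were called in both. Ddit4 differed by 0.21 in the oxaliplatin rats and Per1 by -0.02, neither of them called there, although for neither was the difference from vehicle rats called. Heat shock genes were called lower in 13 of 25 and endoplasmic reticulum chaperones in 16 of 19, proteasome subunits in 6 of 31 and ribosome biogenesis genes in 7 of 31. The change differed from that of vehicle rats for 101 genes (0.892%), 93 with a more positive change after oxaliplatin (0.822%) and 8 with a more negative one (0.0707%). This split did not hold after scaling, with 9 and 10 genes after centring and 21 and 7 after the second quantile normalization, and leaving out 1 array gave between 16 (without 1 h F68 replicate 3 of the vehicle rats) and 298 genes (without their replicate 4). The largest of these was Dact2, a Wnt pathway adaptor, which fell by 0.37 in vehicle rats and rose by 0.37 after oxaliplatin (difference 0.74, limma adjusted p = 0.0122). In the opposite direction Ptprd, a receptor phosphatase, differed by 0.16 in vehicle rats, not called, and fell by 0.37 after oxaliplatin.

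The kidney and liver samples came from the same rats as the hearts. Each comparison of tissues was therefore also run with the title code that recurs in each tissue as a block, although the labels do not say that a code is a rat. In both tissues Bmal1 and Npas2 were again lower at 6 h. Bmal1 fell by 0.71 in kidney and 1.46 in liver, and its difference from the heart was not called with or without the block. Npas2 fell by 0.83 and 1.65, and its difference from the liver was called with the block (limma adjusted p = 0.00241) and not without (adjusted p = 0.0533). Dbp rose by 2.81 in liver, more than in the heart (heart minus liver -2.02, limma adjusted p = 0.0038), and its difference from kidney, 0.55, was called with the block (adjusted p = 0.0118) and not without (adjusted p = 0.191). Nr1d1, which fell in the heart, fell by 0.46 in kidney and rose by 0.46 in liver (heart against liver, adjusted p = 0.00496), and Per3 rose by 1.18 in liver (adjusted p of the difference 0.0254). Cry1, not called in heart, rose by 0.63 in kidney (adjusted p of the difference 0.0145). Clock, Tef and Hlf changed more in heart than in kidney, where they differed by -0.16, 0.28 and 0.11 and were not called (adjusted p of the differences 0.032, 0.0271 and 0.0496). After a second quantile normalization the differences of Clock and Hlf from kidney and of Per3 from liver were not called (adjusted p = 0.0661, 0.0772 and 0.0809). Over all genes, the change differed between heart and kidney for 804 of 10644 (7.55%), 1.82% with the more positive change in heart and 5.73% with the more negative (808 genes with the block). Between heart and liver it differed for 3004 of 10184 (29.5%), 7.29% more positive and 22.2% more negative in heart (3332 genes with the block). The surplus of more negative changes depended on the scaling, since a second quantile normalization gave 179 more positive and 158 more negative against kidney, and 791 and 766 against liver. G0s2 and Tnfrsf12a, the 2 largest called falls in the heart, differed by -0.16 and -0.10 in kidney and by 0.26 and -0.22 in liver, none of them called, and each differed from the heart in both tissues. Egr1 fell by 1.68 in liver and differed by 0.32 in kidney, which was not called. Nop58 fell in all 3 tissues, by 0.24 in kidney and 0.32 in liver. Nppb was not tested in kidney or liver.

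**Figure D5:**
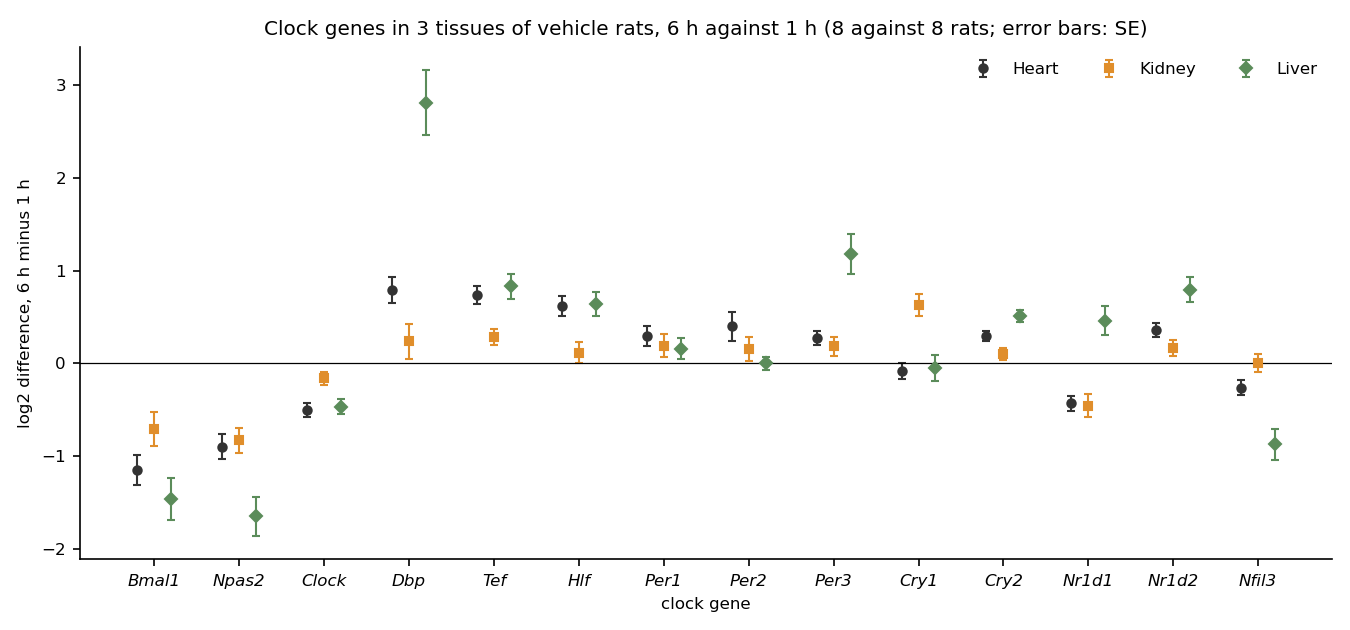
Log2 difference between 6 h and 1 h for 14 clock genes in heart, kidney and liver of vehicle rats (8 against 8 in each tissue, error bars SE). Bmal1 and Npas2 lie below 0 in all 3 tissues, Dbp is at 2.81 in liver against 0.79 in heart, and Nr1d1 lies below 0 in heart and kidney and above it in liver.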

How the data were processed

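The authors deposited log2 values, 1 for each probe set of the Affymetrix Rat Genome 230 2.0 array, which they made with RMA (background correction, quantile normalization and summary over probes, version not given in the sources used here). Of 31099 probe sets, 20832 had 1 gene symbol. Each gene was read from its brightest probe set (mean over the heart arrays), and 11317 of 14218 genes with log2 over 6 on at least 4 heart arrays were tested. Arrays have no read depth, so the number of rats limits the precision.

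One mean for each of 24 heart groups was fitted to 96 heart arrays in limma 3.58.1 (R 4.3.3), with moderated tests and Benjamini-Hochberg adjustment, called under 0.05. Heart was compared with kidney and with liver in fits of 32 arrays each. The study's methods took all 3 tissues from each rat, and the titles of the arrays carry a code that recurs in each tissue. The labels do not say that a code is a rat. Deviations from the group means correlated between arrays of one code at 0.08 to 0.34 (heart and kidney) and 0.14 to 0.36 (heart and liver), each of 16 hearts correlated best with its own code within its group in both tissues, and the code was used as a block in a second fit. The code was tested on simulated data. Members and lists were chosen with earlier results of these data known. Named were the 15 largest rises and falls among called genes, the clock lists, up to 4 called genes per other list and 5 per direction in other comparisons. A few others (list members outside that rule) were named after their values were seen. Of 120 pairs of the 16 arrays, 0 held identical values.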

Additional observations from a re-analysis of the deposited data

Results flagged for a closer look

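In 46 measures (41 genes and 5 array measures), each read in the 4 groups of 4 rats, 6 of 184 sets of 4 values held a value set far apart from the other 3, where chance gives about 1 in 20. Cry2 was at 8.44 in water replicate 4 at 1 h against 8.86 to 8.91 in the others, and Ddit4 at 9.36 in water replicate 1 at 6 h against 10.01 to 10.08. Car5b was at 6.62 in F68 replicate 3 at 6 h against 7.55 to 7.61. The beta-actin 3′ minus 5′ difference was 0.53 in water replicate 3 at 1 h against 0.46 to 0.47. Alb was at 9.42 in water replicate 2 at 6 h against 6.04 to 6.43, and Cd3e, a T cell gene, at 8.80 in water replicate 1 at 1 h against 5.95 to 6.34.

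The change from 1 to 6 h differed between the vehicles (F68 minus water) for 29 genes by limma. The named ones were Egr1 (1.69), Tnfaip6 (1.65), Egr2 (1.09), S1pr3 (1.05), Gfpt2 (0.99), Smim5 (-0.87), Cox5a (-0.61), Gstcd (-0.60), Clasrp (-0.58) and Cc2d2a (-0.55).

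The change after oxaliplatin minus that in vehicle rats was called for 101 genes. The named ones were Dact2 (0.74), Ptpro (0.71), Shfl (0.55), Lpxn (0.54), Ptpn6 (0.51), Ptprd (-0.53), Arnt2 (-0.36), Aspdh (-0.32), Sema6b (-0.29) and Sdk1 (-0.29).

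The change in heart minus that in kidney was called for 804 genes. The named ones were the lactate transporter Slc16a1 (1.14), P2ry1 (1.04), Car5b (0.71), Ntf3 (0.63), Apcs (0.63), Ccn2 (-1.31), Egr1 (-1.27), Tnfrsf12a (-1.26), G0s2 (-1.08) and Esm1 (-0.93).

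The change in heart minus that in liver was called for 3004 genes. The named ones were choline kinase Chka (1.68), Cxcl1 (1.62), the taurine transporter Slc6a6 (1.53), Cxcl10 (1.36), Ect2 (1.22), Dbp (-2.02), Rgs16 (-1.62), G0s2 (-1.51), Noct (-1.50) and Usp2 (-1.42).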

How the results depend on the processing

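Comparisons of times, vehicles and oxaliplatin are between different rats and have no pairing. With the title code as a block, heart minus kidney gave 808 genes and heart minus liver 3332, of which 627 and 2848 were also called without the block, so the counts moved little while the called genes changed in part. The 6 h against 1 h count stayed within 1.5 times of 4165 (3019 to 5053) except without the 6 arrays with Alb above 9 (864). Leaving out 1 array gave 3642 to 4413, and for water 1370 (without 1 h water replicate 3) to 2081, F68 1872 to 3005, the vehicle difference 0 to 124, 24 h against 6 h 5547 to 5752, 24 h against 1 h 5172 to 5554, oxaliplatin rats 2075 to 2687, their difference from vehicle rats 16 to 298 (without 1 h F68 replicate 3 and 4), heart minus kidney 506 to 1112 (the same 2 arrays) and heart minus liver 2599 to 3161. With the arrays of the groups compared alone, counts were 767 (water), 515 (F68), 2 (vehicle difference), 1643 (oxaliplatin) and 1 (oxaliplatin difference). Without the filter the 2 differences gave 13 and 62, and the strict filter 152 for the second. A second quantile normalization gave 1441 (F68), 10 (vehicle difference), 28 (oxaliplatin difference), 337 (heart minus kidney) and 1557 (heart minus liver), with 53.1% and 50.8% of the tissue calls more positive in heart. Every probe set gave 10 for the vehicle difference. With the beta-actin covariate counts were 1274 (water), 8 and 19 (the differences), and centring gave 19 for the second. Without the 2 water arrays highest for Ccl2, water gave 556 and the vehicle difference 9. F68 rats alone gave 2974 for 24 h against 6 h and 2294 for 24 h against 1 h. Centring, leaving out arrays by Ccl2, Alb or Cd3e, the block and the use of F68 rats alone were chosen after seeing the data. The share of rises (26.3%) was 37.6% without the filter and 17.1% with the strict one. Signs turned for Btrc with every probe set (0.17, adjusted p = 0.0237), Atp5f1c on centring (0.0187), Wasf2 in F68 rats alone (-0.00154 and -0.0218) and Ccl2 at 24 h against 1 h in F68 rats alone (0.0597). Of 161 named called genes, 48 kept their call throughout and 113 lost it somewhere, 41 of them on leaving out 1 array. The causes were not tested.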
